A study of Mus musculus with 2 samples.

Results

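The genes described here are the nuclear-encoded genes of the mitochondrial respiratory chain and ATP synthase in cells of the mouse liver. They were chosen by name: symbols that begin with Nduf, Uqcr, Cox4 to Cox8 or Atp5, and Sdha, Sdhb, Sdhc and Sdhd, without pseudogene names, and with at least 100 unique molecular identifiers (UMI, each standing for 1 captured transcript) summed over all kept barcodes. Of 31053 genes in the matrix, 93 gene IDs matched the names and 85 passed the minimum. These 85 members comprised 36 subunits of complex I, 8 assembly factors of complex I, 4 subunits of complex II, 8 of complex III, and 13 genes of complex IV and 16 of complex V. The last 2 groups take in a supercomplex factor (Cox7a2l) and a coupling factor (Atp5s) beside subunits. The minimum is a measured value, so the totals only describe how members were chosen. Just inside it lay Atp5s with 278 UMI and Ndufaf6 with 333 UMI, and just outside it Cox6b2 with 86 UMI and Cox7a1 with 49 UMI. The other matches outside it were Cox4i2 with 9 UMI, Ndufa4l2 with 5 UMI, and Cox7b2, Cox8b, Cox8c and a second gene ID of Atp5o with 0 UMI.

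The respiratory chain passes electrons from NADH and succinate to oxygen and pumps protons across the inner mitochondrial membrane, and complex V (ATP synthase) uses that gradient to make ATP. Most of its subunits are encoded in the nucleus, made in the cytosol and imported, whereas a small core set is encoded in the mitochondrial DNA and made inside the organelle, so that each complex except complex II is assembled from the products of both genomes. Immune cells differ in how far they rely on this route: neutrophils are known for glycolysis, and long-lived or antibody-secreting cells for oxidative metabolism.

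The cells came from livers of 8-week-old mice of the strain labelled RedMUC298trTg, digested with collagenase IV, sorted and profiled in 10x Genomics droplets as immune cells. By their labels 1 sample is WT (Rcrin flox) and the other an Rcrin KO (conditional knockout). The driver of the deletion, the number of animals and the sort gate are not given in the sources used here. The files deposited for the 2 samples were the same byte for byte, and all 11192 barcodes were shared, which leaves no comparison of genotypes; the cells count here as a single sample whose genotype is not known. With 1 sample there is no replicate error and no test: intervals are exact 95% intervals that cover counting error only, not the spread between animals or cells.

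After filtering, 10015 cells with 60730771 UMI remained (median 4250 UMI per cell), and 9012 of them were placed in a class by the share of its marker genes detected. No class marker is a member. The 13 classes with at least 30 cells held 8965 cells and are compared below; they were B-like (2965 cells), T-like (2163), endothelial-like (840), neutrophil-like (840), NK-like (508), Kupffer-like (488, the resident macrophages of the liver), classical monocyte-like (303), nonclassical monocyte-like (278), plasmacytoid dendritic-like (242), ILC1-like (183, tissue-resident innate lymphocytes), plasma-like (63), conventional dendritic 1-like (54) and basophil-like cells (38). In each class the median marker was detected in 62.0 to 98.2% of its own cells and in 0.111 to 6.31% of the other gated cells. The endothelial-like cells, each of whose 12 markers was detected in 77.1% or more of the cells, go against the label of immune cells. Levels are UMI summed over a class per 1000000 UMI of that class (CPM) and are not scaled to gene length; in such sums fewer transcripts of a gene and more of all others cannot be told apart. Summed hepatocyte markers, a sign of free RNA, were 0.0035 to 0.0376% of UMI in the compared classes.

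Promoters are shown first because several members whose levels are described below hold the same motif there. RefSeq promoter windows (GRCm38.p6) of 250 bases before the start were matched by symbol for 70 of the 85 members. The palindromic motif of the regulator NRF1, which is known to act on respiratory genes, was found in 5 of the 70 member promoters (7.14%), against 1.21% of 17491 promoters of coding genes and 0.877% of all 27025 promoters of that length. Both strands were searched. Promoters are counted here and below by gene: a gene with several windows counted once, if any of them held the motif. Of the members, 5 had 2 windows. The 5 promoters with the palindrome belong to a complex IV subunit (Cox6a1), 2 ATP synthase genes (Atp5g2, Atp5k), a complex I accessory subunit (Ndufa11) and a complex I assembly factor (Ndufaf4). The Cox6a1 window (chr5:115348959-115349208, minus strand) is shown whole; capitals mark the NRF1 motif with its sixth base free, the ETS core CCGGAAG and the SP1 core GGGCGG on either strand. The Cox5a window (chr9:57520982-57521231, plus strand) is shown with the same marks, since Cox5a departed from the other members in Kupffer-like cells, and it held GGGCGG alone of these. For the other 4 genes 30 bases around the palindrome, in capitals, are shown: Atp5g2 at chr15:102671070-102671099 and Atp5k at chr5:108434430-108434459, both on the minus strand, and Ndufa11 at chr17:56717692-56717721 and Ndufaf4 at chr4:24897960-24897989, both on the plus strand.
Cox6a1: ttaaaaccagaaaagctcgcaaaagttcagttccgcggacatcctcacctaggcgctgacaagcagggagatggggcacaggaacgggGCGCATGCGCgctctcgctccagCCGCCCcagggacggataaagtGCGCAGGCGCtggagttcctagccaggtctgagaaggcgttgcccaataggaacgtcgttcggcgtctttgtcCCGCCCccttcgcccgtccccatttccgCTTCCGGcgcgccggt
Cox5a: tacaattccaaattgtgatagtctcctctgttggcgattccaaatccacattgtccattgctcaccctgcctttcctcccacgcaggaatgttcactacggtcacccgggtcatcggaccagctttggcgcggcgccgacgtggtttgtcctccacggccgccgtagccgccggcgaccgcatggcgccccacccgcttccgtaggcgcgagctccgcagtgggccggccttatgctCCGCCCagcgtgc
Atp5g2: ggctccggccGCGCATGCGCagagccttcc
Atp5k: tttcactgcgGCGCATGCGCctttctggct
Ndufa11: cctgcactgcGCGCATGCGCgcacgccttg
Ndufaf4: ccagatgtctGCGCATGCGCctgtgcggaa

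With that base left free, which takes in the palindrome, the motif was in 14 of the 70 member promoters, against 5.84% of coding and 4.23% of all promoters. CCGGAAG, the core bound by ETS factors such as GABP, was also in 14, against 10.2% and 7.83%. GGGCGG was in 38.6% of member promoters against 45.8% of coding promoters, CCAAT in 42.9% against 39.5%, and TATAAA in 7.14% against 13.7%. The YY1 and ERRA motifs were each in 1 member promoter (1.43%). YY1 was in 0.463% of coding and 0.359% of all promoters, and ERRA in 0.36% and 0.422%. Member promoters held a median of 15 CpG dinucleotides, against 10 in coding promoters, at a median GC content of 57.6% against 55.6%. A match describes the letters of the window and shows no binding.

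The summed level of the 85 members was highest in classical monocyte-like cells at 17890 CPM (17732 to 18049) and lowest in neutrophil-like cells at 6512 CPM (6411 to 6615), a ratio of 2.75 (2.70 to 2.80). The top class led the next by 1.02-fold (1.001 to 1.03) and changed with the setting: it was plasmacytoid dendritic-like cells with at most 5% mt- UMI and in Leiden clusters, conventional dendritic 1-like cells with cells thinned, and plasma-like cells without genes above 1% of the UMI of a class. Neutrophil-like cells were lowest under each of the 11 other settings. Plasmacytoid dendritic-like cells were at 17620 CPM, plasma-like at 17397 CPM and conventional dendritic 1-like at 16567 CPM. Of the 63 plasma-like cells 18 held at least 3 proliferation markers, and the other 45 were at 14623 CPM. That is below the level of ILC1-like cells, of which 0 held these markers. Among conventional dendritic 1-like cells 9 of 54 held them. ILC1-like, NK-like, T-like, Kupffer-like and endothelial-like cells followed at 15315, 15247, 14881, 14519 and 14169 CPM. At the low end lay nonclassical monocyte-like cells at 12010 CPM, B-like cells at 10534 CPM and basophil-like cells at 9018 CPM (8593 to 9458). The 2 pairs of neighbours whose ratio had an interval including 1 were plasmacytoid dendritic-like and plasma-like cells (1.01, 0.996 to 1.03) and ILC1-like and NK-like cells (1.0045, 0.984 to 1.03). All other neighbours in this order differed by more than the counting error.

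The 13 mt- protein genes, which encode the mitochondrial part of the same complexes, followed another order. They made up 6.38% of UMI in B-like cells (6.37 to 6.40), the highest share, 6.24% in endothelial-like, 6.23% in Kupffer-like and 5.85% in plasmacytoid dendritic-like cells. T-like cells had 4.86%, nonclassical monocyte-like, ILC1-like and NK-like cells 4.06, 4.06 and 3.97%, and classical monocyte-like cells 3.79%. Conventional dendritic 1-like, plasma-like and basophil-like cells had 3.47, 3.46 and 2.95%. Neutrophil-like cells were lowest for both genomes, at 1.97% (1.95 to 1.98), 3.25-fold (3.22 to 3.28) below B-like cells. B-like cells, highest for the mitochondrial genes, were among the 3 lowest classes for the nuclear ones. Nuclear UMI per mt- UMI accordingly ran from 0.165 in B-like to 0.503 in plasma-like cells, and was 0.477 in conventional dendritic 1-like and 0.472 in classical monocyte-like cells. Over the 13 classes, which share 1 library and 1 total, the log2 levels of both genomes had a Pearson r of 0.50 and a Spearman rho of -0.02. The filter of at most 10% mt- UMI bears on this share: 18.8% of endothelial-like, 16.6% of Kupffer-like and 14.5% of B-like cells held over 8%, against 2.73% of T-like cells. With at most 5% mt- UMI the highest class for these genes was plasmacytoid dendritic-like and not B-like cells. The part of the filter in the order was not tested beyond the other limits given in the closing section. By gene, mt-Co1 was highest in plasmacytoid dendritic-like cells (10845 CPM), mt-Co2, mt-Atp6 and mt-Nd5 in B-like cells (10066, 13140 and 1282 CPM) and mt-Co3 and mt-Nd3 in Kupffer-like cells (10643 and 703 CPM). The other 7, among them mt-Nd4 (5537 CPM) and mt-Cytb (5915 CPM), were highest in endothelial-like cells, and all 13 were lowest in neutrophil-like cells.

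**Figure D1:**
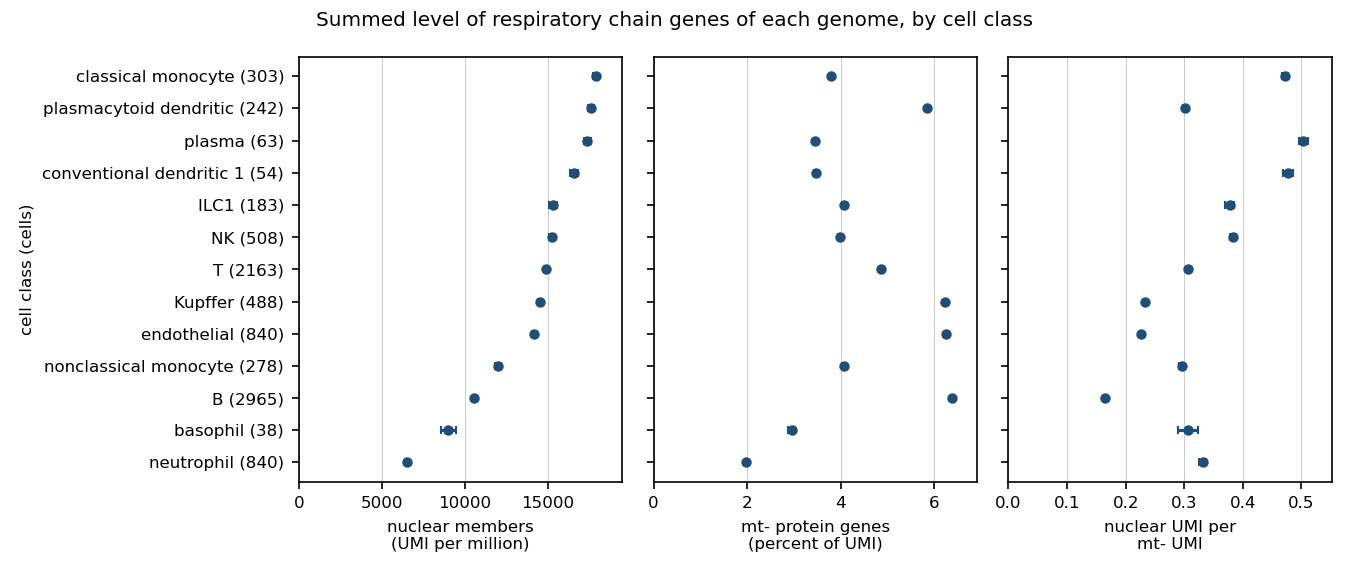
Summed nuclear members (CPM), mt- protein genes (percent of UMI) and nuclear UMI per mt- UMI, on the horizontal axes, for the 13 classes with their number of cells, ordered by the nuclear level. Points are summed values and bars exact 95% counting intervals; B-like cells lie low on the left at 10534 CPM and highest in the middle at 6.38%.

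Cells thinned to 1000 UMI each gave the same contrast cell by cell, with shallower cells left out. The median neutrophil-like cell (836 cells) then held 6 nuclear and 15 mt- UMI, the median B-like cell (2961 cells) 10 and 63, the median T-like cell (2162 cells) 14 and 47, and the median classical monocyte-like cell (302 cells) 17 and 37. The quartiles of the nuclear count were 4 and 8 in neutrophil-like and 14 and 21 in classical monocyte-like cells, so these ranges did not overlap. Plasma-like cells had the highest median depth, 19114 UMI unthinned, and conventional dendritic 1-like cells had 17262 UMI, against 2571 UMI in neutrophil-like cells. Thinned, conventional dendritic 1-like cells had a median of 19 nuclear UMI (54 cells) and plasma-like cells 17 (63 cells).

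Members rarely marked 1 class. Of the 85, 3 (3.53%) were at least 2-fold higher in their highest class than in the next class, against 22.4% of all 12014 genes tested, and the median fold of the highest over the next class was 1.14 for members and 1.30 for all genes. Members also had more UMI over all kept barcodes, a median of 7849 against 1469.5 for all genes tested. Counting error is larger at low counts, and its part in this contrast was not tested. The 3 members past 2-fold were Cox6a2 in plasmacytoid dendritic-like, Cox5a in Kupffer-like and Ndufa1 in plasma-like cells. The count was 5 with cells thinned to 1000 UMI, and 9, without Cox5a, when genes above 1% of the UMI of a class were left out of the total. The share of all genes was not counted under these settings. From the highest to the lowest class the median member differed 5.12-fold. Of the 85 members, 21 were highest in plasma-like cells (24.7%; 6% of all genes), 20 in classical monocyte-like cells (23.5%; 3.24%), 11 in endothelial-like cells (12.9%; 23%) and 10 in conventional dendritic 1-like cells (11.8%; 6.51%). Kupffer-like and plasmacytoid dendritic-like cells had 7 each (8.53 and 8.06% of all genes), ILC1-like 4 (9.6%), NK-like 3 (5.89%), and T-like and basophil-like cells 1 each (4.01 and 6.03%). In B-like, neutrophil-like and nonclassical monocyte-like cells 0 members were highest (9.12, 5.93 and 4.11% of all genes).

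Counted at 1.5-fold against all other compared cells, members in neutrophil-like cells were mostly lower (75 of 85, 1 higher), but so were 72.3% of all genes there, with 11.8% higher; the median ratio was 0.36 for members and 0.26 for all genes. In B-like cells 34 were lower and 1 higher (38.6 and 16.5% of all genes), and in basophil-like cells 54 lower and 4 higher (29.6 and 11.3%). The basophil-like counts rest on 187741 UMI, of which 1693 were of members, so many single genes there had under 20 UMI. In plasma-like cells 21 members were higher and 5 lower, against 9.38 and 58.4% of all genes, and the medians were 1.22 and 0.46. That count was 11 without proliferating cells. It was 53 when genes above 1% of the UMI of a class, which held 38.4% of UMI in plasma-like cells, were left out of the total. Leaving them out raises the level of every gene in the class, member or not. Both settings were chosen after seeing the data. In classical monocyte-like cells 17 were higher and 5 lower (13.8 and 42.6%), and in endothelial-like cells 19 and 6 (32.9 and 30.3%). Plasmacytoid dendritic-like cells had 11 higher and 0 lower (15.9 and 33.2%), and conventional dendritic 1-like cells 11 and 3 (13.7 and 37.5%). Kupffer-like cells had 5 higher and 6 lower (19.7 and 40.2%), T-like 1 and 2 (15 and 34%), NK-like 4 and 3 (13.2 and 30.9%), ILC1-like 4 and 2 (16.5 and 24.9%) and nonclassical monocyte-like cells 1 and 19 (12 and 40.7%). For higher levels, the member shares lay above the share of all genes in plasma-like and classical monocyte-like cells. For lower levels they did so in neutrophil-like, basophil-like and, narrowly, B-like cells. The median ratio in basophil-like cells was yet higher for members (0.57) than for all genes (0.38), as in neutrophil-like cells. In B-like cells it was lower (0.70 and 0.85). For lower levels a class count under 3 UMI was read as 3, which is 16.0 CPM in basophil-like cells. Genes with few UMI could thus not be called lower there, and the part of this in the basophil-like share was not tested. The counts of higher members depended on the setting: in classical monocyte-like cells they were 11 in Leiden clusters, 28 as means over cells and 30 thinned, in conventional dendritic 1-like cells 25 and 36 under the last 2, in plasmacytoid dendritic-like cells 23 and 28, and in Kupffer-like cells 22 and 20. The share of all genes was counted under the main setting only, so it cannot be set beside the counts under other settings.

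**Figure D2:**
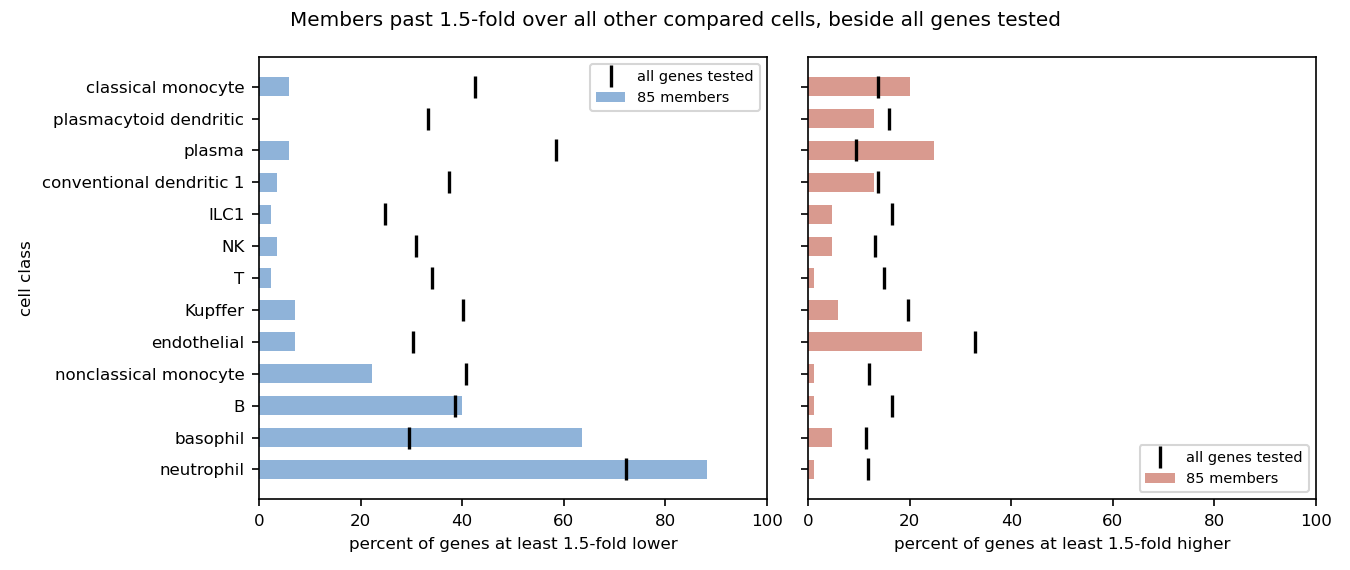
Percent of the 85 members (bars) and of all 12014 genes tested (black ticks) at least 1.5-fold lower (left) or higher (right) in each class than in all other compared cells. Bars pass the ticks for higher levels in plasma-like (24.7 against 9.38%) and classical monocyte-like cells (17 members, against 13.8%), and for lower levels in neutrophil-like, basophil-like and B-like cells. For lower levels a class count under 3 UMI was read as 3, so genes with few UMI could not be called lower in shallow classes.

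Complex I, which oxidises NADH, took 31.1% of the members' UMI in endothelial-like and in plasma-like cells and 25.7 to 28.0% in the other 11 classes. In plasma-like cells its 36 subunits were at 5411 CPM, 1.46-fold (1.42 to 1.49) the other compared cells, with 13 of them past 1.5-fold and 0 below (9.38 and 58.4% of all genes). Ndufa1, an accessory subunit of the membrane arm encoded on the X chromosome (chrX:37187588-37191163, minus strand), was at 391 CPM (358 to 427) in plasma-like cells and at 159 CPM in NK-like cells, the next class, a ratio of 2.47 (2.15 to 2.83). In the other classes it ran from 60.6 CPM in neutrophil-like to 153 CPM in classical monocyte-like cells. Every plasma-like cell held a Ndufa1 UMI. Ndufs5 was 2.46-fold and Ndufs8, a core subunit carrying iron-sulfur clusters, 2.28-fold the other compared cells in this class. Of the 3 complex I subunits with most UMI, Ndufa13 was highest in NK-like cells (319 CPM) and lowest in nonclassical monocyte-like cells (144 CPM), with a class median of 256 CPM. Ndufb11 had a median of 226 CPM and was highest in plasma-like cells (381 CPM), 1.39-fold (1.20 to 1.62) conventional dendritic 1-like cells, and lowest in Kupffer-like cells (82.9 CPM). Ndufa2 ran from 98.1 CPM in neutrophil-like to 254 CPM in plasma-like cells, where the next class, Kupffer-like cells, did not differ beyond the counting error (1.07, 0.9497 to 1.21). In endothelial-like cells 9 of the 36 subunits were higher and 0 lower, when 32.9% of all genes were higher and 30.3% lower; the subunits included Ndufa8 at 175 CPM (2.17-fold) and Ndufa5 at 109 CPM (2.02-fold).

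The 8 assembly factors of complex I, which build the complex and are no part of it, had lower counts than most subunits and several different highest classes. Ndufaf8 was highest in ILC1-like cells (80.5 CPM), 1.83-fold the other compared cells, and Ndufaf3 in endothelial-like cells (30.2 CPM). Ndufaf4, with the NRF1 palindrome shown above, was at 49.9 CPM in plasmacytoid dendritic-like and 46.5 CPM in B-like cells, a pair that did not differ beyond counting error (1.07, 0.853 to 1.33), and was the 1 member past 1.5-fold in B-like cells (1.57, 1.41 to 1.75). It had 0 UMI in neutrophil-like cells, which allows up to 1.24 CPM. Ndufaf7, a methyltransferase that acts on a complex I subunit, ran the other way: 46.2 CPM (38.5 to 54.9) in classical monocyte-like, 28.0 CPM (21.8 to 35.5) in neutrophil-like and 27.0 CPM in nonclassical monocyte-like cells, against 6.5 CPM in Kupffer-like and 9.4 CPM in B-like cells. It was the 1 member past 1.5-fold in neutrophil-like cells (2.15, 1.65 to 2.77) and in nonclassical monocyte-like cells (2.03, 1.44 to 2.78). Ndufaf7 was named after its values were seen.

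Complex II, succinate dehydrogenase, links the tricarboxylic acid cycle to the chain and has no mitochondrially encoded subunit. Its 4 genes summed to 376 CPM (361 to 392) in Kupffer-like cells, 1.47-fold (1.40 to 1.54) the other compared cells, and gave 2.59% of the members' UMI there, against 0.886 to 2.29% in the other 12 classes. Both membrane anchors were past 1.5-fold there (19.7% of all genes higher, 40.2% lower): Sdhc was at 81.5 CPM and Sdhd at 91.8 CPM in Kupffer-like cells, 2.13-fold and 1.90-fold the other compared cells. Sdha and Sdhb were 1.14-fold (1.04 to 1.25) and 1.24-fold (1.14 to 1.35). Sdhc was also high in endothelial-like cells (76.9 CPM), a level that did not differ from Kupffer-like cells beyond counting error (1.06, 0.932 to 1.21), and its class median was 35.5 CPM. Sdha, the flavoprotein, was highest in endothelial-like cells (119 CPM) and Sdhb, the iron-sulfur subunit, in plasmacytoid dendritic-like (135 CPM) and classical monocyte-like cells (134 CPM). In basophil-like cells Sdha and Sdhc each had 1 UMI. Of the 4 genes, Sdha alone had a highest class that differed from the next, Kupffer-like cells, beyond the counting error (1.24, 1.11 to 1.39); Sdhd in Kupffer-like cells was 1.04-fold (0.831 to 1.33) conventional dendritic 1-like cells.

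Complex III, the cytochrome bc1 complex, had 2 of its 8 genes past 1.5-fold in each of plasma-like, classical monocyte-like and endothelial-like cells (0, 0 and 1 lower), and all 8 lower in neutrophil-like cells. Of all genes 9.38, 13.8 and 32.9% were higher in those 3 classes, and 72.3% were lower in neutrophil-like cells. Uqcrh, the hinge protein, differed little at the top: it was at 600.4 CPM in T-like and 593 CPM in classical monocyte-like cells (1.01, 0.959 to 1.07), with a class median of 469 CPM and 208 CPM in neutrophil-like cells. Uqcrq was at 419 CPM in plasma-like cells, 1.53-fold (1.37 to 1.71) classical monocyte-like cells. Uqcrb was at 331 CPM in endothelial-like and 322 CPM in conventional dendritic 1-like cells (1.03, 0.912 to 1.16) and at 37.1 CPM in neutrophil-like cells.

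**Figure D3:**
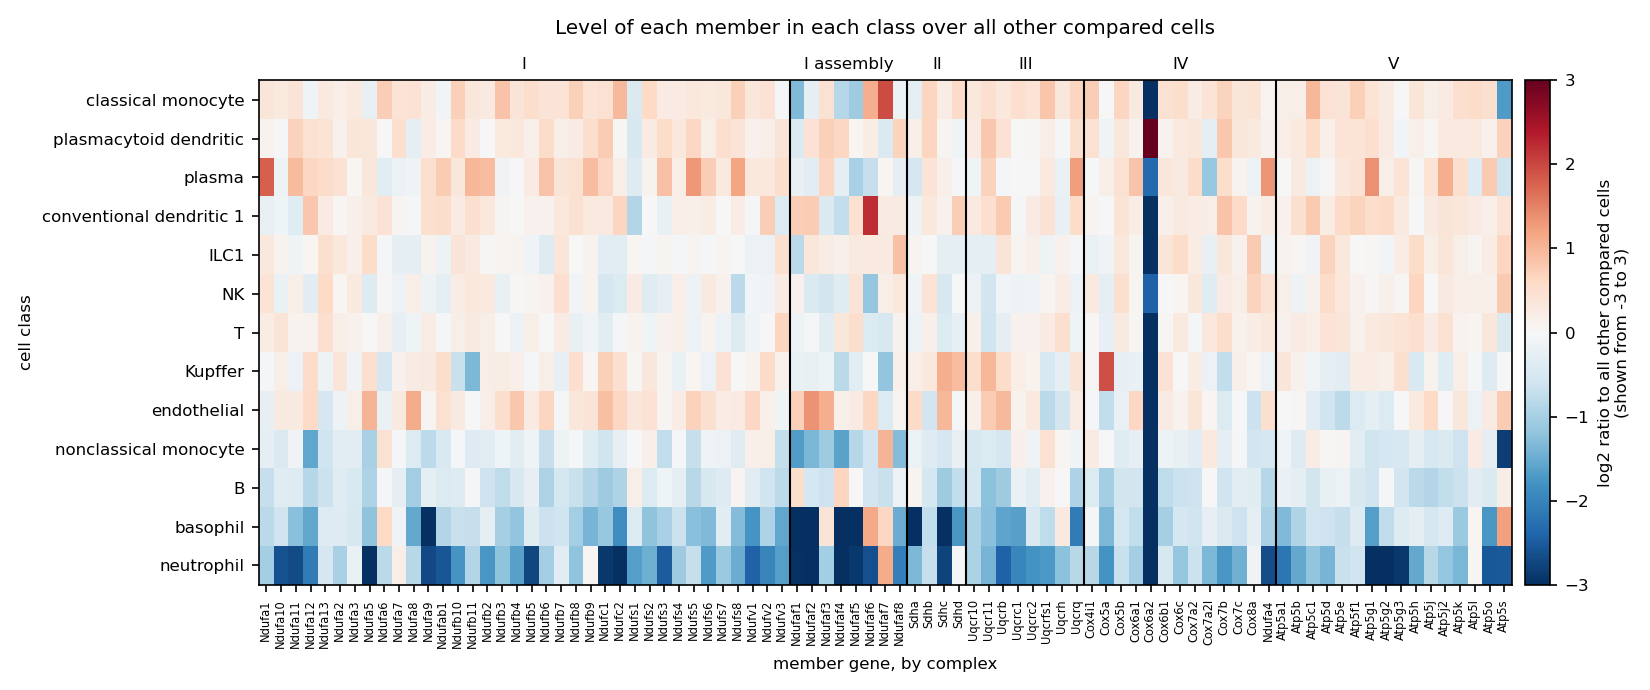
Log2 ratio of each of the 85 members (columns, by complex) in each of the 13 classes (rows) to all other compared cells; red is higher, blue lower, and values beyond the ends of the colour scale are drawn at its ends. The neutrophil-like row is blue but uneven, and single cells of the map stand out for Cox6a2 in plasmacytoid dendritic-like and Cox5a in Kupffer-like cells.

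Complex IV, cytochrome c oxidase, held the member with the sharpest class pattern. Cox6a2 (chr7:128205435-128206387, minus strand) encodes the form of subunit VIa known from heart and skeletal muscle, and Cox6a1 (chr5:115345642-115348981, minus strand) the form found in most tissues. Cox6a2 was at 1203 CPM (1155 to 1253) in plasmacytoid dendritic-like cells, at 9.86 CPM in plasma-like cells, at 9.41 and 2.37 CPM in NK-like and ILC1-like cells, at 1.98 CPM in nonclassical monocyte-like cells and under 1 CPM in B-like, T-like, endothelial-like, neutrophil-like, Kupffer-like and classical monocyte-like cells. Conventional dendritic 1-like and basophil-like cells had 0 UMI, which allows up to 3.03 and 16.0 CPM. The plasmacytoid dendritic-like level was 122-fold (71.2 to 230) the next class and 1057-fold (807 to 1411) all other compared cells, where Cox6a2 had 54 UMI in all, and 97.7% of its UMI in the compared classes lay in this one. A further 213 UMI were in cells without a class. The ratio to other cells was 759 with cells thinned and 402 in Leiden clusters. A Cox6a2 UMI was found in 230 of 242 plasmacytoid dendritic-like cells (interval 91.5 to 97.4%; median depth 7983 UMI; median 9 UMI of Cox6a2 per cell), against 4 of 2965 B-like cells (0.135%; median depth 3241 UMI). Thinned to 1000 UMI per cell the shares were 60.4 and 0.0675%.

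Cells with several Cox6a2 UMI outside this class were few. At least 3 UMI were found in 2 NK-like and 2 plasma-like cells, none of which held 3 or more markers of plasmacytoid dendritic cells, and in 20 of the 1003 cells without a class, of which 16 held 3 or more of these markers. Cox6a1 was at 208 CPM in plasmacytoid dendritic-like cells, close to its class median of 203 CPM, so Cox6a2 made up 85.3% (83.9 to 86.6) of the UMI of both paralogues there and 0 to 4.42% in the other compared classes. Without Cox6a2 the members summed to 16417 CPM in plasmacytoid dendritic-like cells, below the 17397 CPM of plasma-like cells.

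Cox5a (chr9:57521274-57532426, plus strand), which encodes a nuclear subunit on the matrix side of the complex, was at 856 CPM (833 to 881) in Kupffer-like cells and present in 93.0% of them. The next class, plasma-like cells, was at 336 CPM, a ratio of 2.55 (2.31 to 2.82) that was 1.82 without genes above 1% of the UMI of a class in the total. Classical monocyte-like and nonclassical monocyte-like cells were at 300.2 and 295 CPM, and neutrophil-like cells at 88.2 CPM. Of all 13 genes of the complex, Cox5a was the 1 past 1.5-fold higher in Kupffer-like cells, and 2 were lower (19.7 and 40.2% of all genes). The median over the 13, Cox5a among them, was 0.996-fold the other compared cells. Cox5b, the other nuclear subunit numbered 5, was highest in classical monocyte-like (406 CPM) and NK-like cells (366 CPM).

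**Figure D4:**
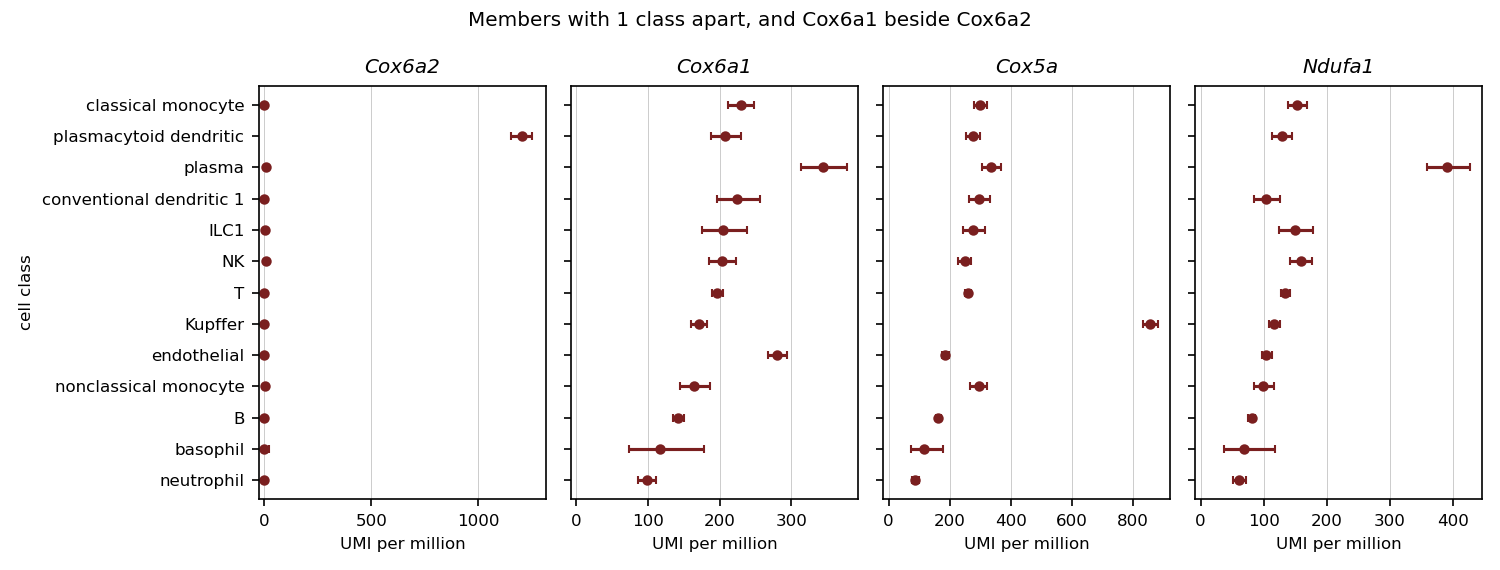
Levels (CPM, horizontal axes from 0) of Cox6a2, Cox6a1, Cox5a and Ndufa1 in the 13 classes; points are summed values and bars exact 95% counting intervals. Cox6a2 stands at 1203 CPM in plasmacytoid dendritic-like cells, Cox5a at 856 CPM in Kupffer-like cells and Ndufa1 at 391 CPM in plasma-like cells, whereas Cox6a1 runs from 98.1 to 344 CPM.

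The other complex IV members varied less. Cox4i1, with most UMI of all members, was at 1066 CPM in classical monocyte-like and 886 CPM in plasmacytoid dendritic-like cells (1.20, 1.13 to 1.28), with a class median of 669 CPM and 375 CPM in neutrophil-like cells. Its paralogue Cox4i2, known from lung and from the response to low oxygen, had 6 UMI in all compared cells, 5 of them in Kupffer-like cells. Cox8a was highest in ILC1-like (935 CPM) and NK-like cells (848 CPM) and lowest in endothelial-like cells (366 CPM); Cox8b, the muscle form, had 0 UMI. Cox7c was highest in conventional dendritic 1-like cells (542 CPM; class median 393 CPM). Ndufa4, named for complex I but assigned to complex IV by later work, was at 761 CPM in plasma-like cells, 1.82-fold (1.69 to 1.962) endothelial-like cells, and its paralogue Ndufa4l2 had 3 UMI. Cox7a2l, a factor of supercomplexes, went against most members in plasma-like cells: it made up 27.7% (24.3 to 31.4) of the UMI of the Cox7a set there and 64.5% (61.1 to 67.8) in nonclassical monocyte-like cells. Cox7a1, the muscle form, had 24 UMI over the compared classes, 13 of them in Kupffer-like cells. Cox6b2, the testis form, had 46 UMI, with 11 in classical monocyte-like cells at 3.997 CPM and a class median under 1 CPM.

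Complex V had 16 members. Atp5h was highest in NK-like (714 CPM) and ILC1-like cells (676 CPM; 1.06, 0.959 to 1.16) and lowest in neutrophil-like cells (168 CPM). Atp5e was highest in conventional dendritic 1-like cells (648 CPM) and lowest in endothelial-like cells (270.2 CPM), where neutrophil-like cells were not the lowest class. Atp5l ran from 315 CPM in plasma-like to 583 CPM in classical monocyte-like cells. The proton-turning c ring is made from identical proteins encoded by Atp5g1, Atp5g2 and Atp5g3. Atp5g2 gave 60.1% (58.9 to 61.3) of their UMI in B-like cells but 40.2% (37.7 to 42.8) in plasma-like cells, and Atp5g1 went from 19.2 to 38.2% (35.7 to 40.8). Atp5g1 was at 414 CPM in plasma-like cells, 1.72-fold (1.48 to 2.01) conventional dendritic 1-like cells, at 119 CPM in B-like and at 16.5 CPM in neutrophil-like cells.

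The low level in neutrophil-like cells was uneven among members named after their values were seen. Ndufa5 had 7 UMI there (2.89 CPM, against a class median of 61.7 CPM), Ndufc2 was at 9.89 CPM (median 95.1 CPM) and Atp5g2 at 37.9 CPM (median 424 CPM), 0.0449-fold, 0.098-fold and 0.094-fold the other compared cells. By contrast Atp5l was at 420.4 CPM (1.02, 0.960 to 1.09), Ndufb9 at 175 CPM (1.05, 0.946 to 1.15), Sdhd at 52.3 CPM (0.98, 0.815 to 1.17) and Ndufa7 at 175 CPM (1.14, 1.04 to 1.26). Within complex I alone, neutrophil-like cells thus ranged from nearly none of the level elsewhere (Ndufa5) to slightly above it (Ndufa7). Neutrophil-like cells with at least 2 of the secondary granule genes Ngp, Camp and Ltf, which mark immature cells, numbered 60 and had 7250 CPM of members (6984 to 7525), against 6374 CPM in the other 780 cells (ratio 1.14, 1.09 to 1.19). In them 30 members were higher by 1.5-fold and 8 lower (19.2 and 16.5% of all genes). The mt- protein genes went the other way, 1.27% against 2.097% of UMI. Depth differed as well, with medians of 6331 UMI in the granule-rich and 2507 UMI in the other cells, and its part was not tested. Ndufv3 was at 93.8 and 19.1 CPM and Ndufb11 at 208 and 90.6 CPM in the granule-rich and other cells.

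Proliferating cells held more of the members in T-like and plasma-like cells. The 111 T-like cells with at least 3 proliferation markers were at 21851 CPM (21624 to 22080) and the other 2052 at 13840 CPM, a ratio of 1.58 (1.56 to 1.597); 56 of 85 members were higher and 2 lower, against 22.9 and 17.5% of all genes. Cox5a was at 532 and 220 CPM and Cox5b at 599 and 263 CPM, whereas Cox7a2l, at 218 and 354 CPM, was lower in the proliferating cells. The mt- protein genes did not follow, at 4.65% and 4.89% of UMI. In plasma-like cells the 18 cells with these markers were at 21673 CPM and the other 45 at 14623 CPM (1.48, 1.44 to 1.52), with 47 members higher and 0 lower (38.3 and 5.15% of all genes), and mt- genes at 4.09% and 3.04%. Ndufa1 was not among the genes higher there: it was at 316 CPM in the 18 cells and 440.1 CPM in the other 45. In Kupffer-like cells the 16 cells with these markers were at 16753 CPM and the others at 14399 CPM (1.16), with 4 members higher and 0 lower (23.4 and 6.88%). Depth moved with proliferation: median depths were 14142 and 4939 UMI in T-like and 29362 and 18141 UMI in plasma-like cells, and its part in these ratios was not tested.

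**Figure D5:**
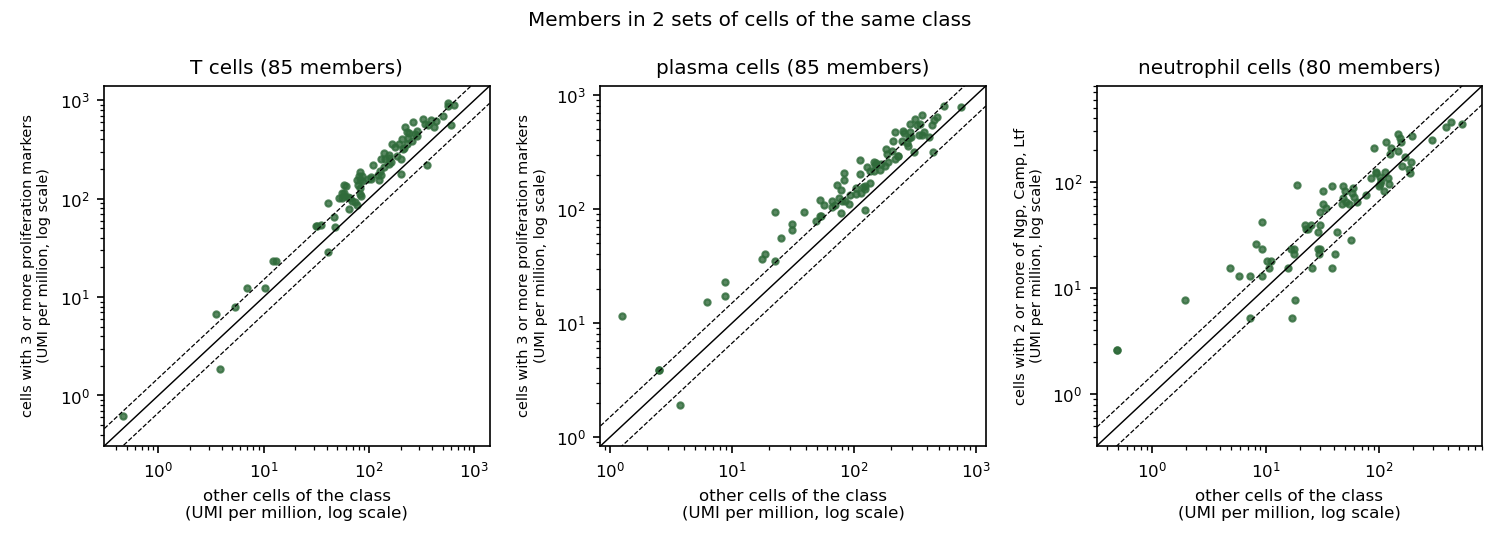
Level of each member in proliferating or granule-rich cells (vertical, CPM, log scale) against the other cells of the same class (horizontal, log scale), for T-like (85 members), plasma-like (85) and neutrophil-like cells (80 members with a UMI in both sets). The solid line marks equal levels and dashed lines 1.5-fold; in T-like cells 56 members lie above the upper dashed line, and in neutrophil-like cells members lie on both sides.

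Across the 13 classes the level of most members went with the sum of the others. The log2 level of a member had a Pearson r of at least 0.8 with the summed level of the other members for 52 of 85, with a median of 0.84. These values share 1 library and 1 total per class and are given as a description. The r of all other genes with this sum was not computed, so the count is not shown to be particular to the members. Most like the sum were Atp5k (0.96) and Atp5g1 (0.95), and least like it Ndufaf7 (-0.22), Ndufa7 (0.14) and Atp5l (0.20). The shares of complexes V and III in the members' UMI were more even than the summed level: complex V took 27.5 to 32.5% and complex III 8.42 to 10.7%. The share of complex II was less even, from 0.886% in basophil-like to 2.59% in Kupffer-like cells. Of the mitochondrial genes, those of complex I took 26.1% of mt- UMI in endothelial-like and 18.5% in plasma-like cells. Both classes with the highest nuclear complex I share lay at the 2 ends for the mitochondrial one.

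Other mitochondrial gene lists are given beside the members, to be read against all genes tested: 11.8% of these were higher and 72.3% lower in neutrophil-like cells, 9.38 and 58.4% in plasma-like, 16.5 and 38.6% in B-like and 13.8 and 42.6% in classical monocyte-like cells. Of 77 mitochondrial ribosome proteins, which translate the mt- genes, 70 were lower and 1 higher in neutrophil-like cells, and 17 were higher and 10 lower in plasma-like cells. The 1 higher in neutrophil-like cells was Mrpl33, at 651 CPM against 395 CPM in classical monocyte-like cells, and Mrpl38 was highest in plasmacytoid dendritic-like cells at 95.6 CPM. Of 13 tricarboxylic acid cycle genes, 11 were lower and 0 higher in neutrophil-like cells, and 0 higher and 4 lower in plasma-like cells, where 58.4% of all genes were lower. Suclg2 was highest in endothelial-like cells (47.7 CPM) and Idh3a in T-like cells (54.4 CPM). Of 12 genes that transcribe and maintain mitochondrial DNA, 5 were higher and 3 lower in B-like cells, the class with the highest mt- share, and 11 were lower in neutrophil-like cells. Endothelial-like and Kupffer-like cells, whose mt- shares were close to that of B-like cells, had 2 higher each, and 4 and 7 lower. Of all genes 32.9 and 19.7% were higher in these 2 classes, and 30.3 and 40.2% lower. Top1mt, a mitochondrial topoisomerase, was highest in NK-like cells (16.1 CPM), and Polg2 in basophil-like cells on 11 UMI.

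Of 39 assembly factors outside the name rule, 34 were lower and 2 higher in neutrophil-like cells and 4 higher and 14 lower in plasma-like cells. Tmem126b, a complex I assembly factor, was highest in endothelial-like cells (30.5 CPM), and Sco1, which delivers copper to complex IV, in plasmacytoid dendritic-like cells (11.3 CPM). Of 14 genes for cytochrome c, ubiquinone partners and carriers, 4 were higher and 0 lower in classical monocyte-like cells and 12 lower in neutrophil-like cells. Atpif1, the inhibitor of ATP synthase, was at 651 CPM in conventional dendritic 1-like cells against a class median of 79.6 CPM, and Cycs, cytochrome c, at 418 CPM there. Of 11 regulators of respiratory genes, 0 were higher and 9 lower in plasma-like cells; Myc was highest in B-like cells (123 CPM) and Ppargc1b, a coactivator of mitochondrial genes, in Kupffer-like cells (17.1 CPM). Of 8 genes of mitochondrial defence against reactive oxygen, 5 were higher and 0 lower in classical monocyte-like cells, and 1 was higher and 3 lower in neutrophil-like cells. The 1 higher was Prdx5, at 1382 CPM there against 1145 CPM in classical monocyte-like cells. Sod2 was highest in classical monocyte-like cells at 265 CPM. Of 96 genes named for cytosolic ribosome proteins, a name pattern that also catches a few kinases, 90 were lower in neutrophil-like, 84 in endothelial-like and 75 in Kupffer-like cells (72.3, 30.3 and 40.2% of all genes), and 68 were higher in T-like cells (15% of all genes).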

How the data were processed

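The authors deposited UMI counts per gene and barcode as a filtered matrix for each of 2 samples; per the submitters' processing notes the tools were Cell Ranger 2.1.1, STAR and Seurat 2.3.4 with mm10, whereas the matrix header, per the file headers, names software version 3.0.0. The role of each tool, the annotation and the way reads on overlapping genes were counted are not given in the sources used here; 12 members overlap another gene on their strand, so their counts are less certain. Since the 2 samples hold the same bytes, 1 matrix (11192 barcodes, 67037274 UMI) was used once.

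Barcodes with at least 500 UMI, 200 genes and at most 10% mt- UMI were kept (56 failed on genes, 778 on mt- UMI), and 351 doublets called by Scrublet in scanpy 1.11.5 were removed. A cell took the class with the highest share of its markers (171 genes in 20 lists) if it held at least 3 of them and 40% of the list, and every other class had at most 0.667 of that share; 1003 cells stayed without a class. Of 8811 gated cells in named Leiden clusters, 98.4% had the same class there. The clusters were named from the same markers, so the 2 namings are not independent. Cells without a class or in unnamed clusters are outside this share. Counts were summed per class and divided by its total. Ratios have exact conditional intervals, levels exact Poisson and shares Clopper-Pearson intervals, all 95% and for counting error only; a count of 0 was read as up to 3 UMI. Levels 1.5-fold above or below all other compared cells were counted, without a test since there is 1 sample; the counting was tested on simulated data. Promoter motifs were searched on both strands of RefSeq windows. Python 3.11.15, numpy 2.4.6, scipy 1.17.1, pandas 2.3.3, scikit-learn 1.9.0, igraph 0.11.9 and matplotlib 3.10.9 were used.

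Members and gene lists were chosen with earlier results of these data known. Genes were named by a rule: the 3 members with most UMI in each complex, those 2-fold over the next class, paralogue sets, the Sdh genes, those next to the minimum, the mt- genes, and the 2 genes of each other list with the highest ratio of highest to median class. Other members named with values were chosen after those were seen. Alternatives were other mt- limits, doublets kept, other totals, means over cells, thinning, a stricter gate and clusters in place of gates.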

Additional observations from a re-analysis of the deposited data

Results flagged for a closer look

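Signal was found in genes and cells that the comparisons leave out, above what 3 UMI allow. Of the genes under the member minimum, Cox6b2 had 86 UMI, Cox7a1 49 UMI, Cox4i2 9 UMI and Ndufa4l2 5 UMI over all kept barcodes. Cox7a1 was found in 12 Kupffer-like cells and in 4 of 12 cholangiocyte-like cells.

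In classes with under 30 cells the members summed to 65210 CPM in 10 hepatocyte-like cells (61769 to 68793), 26108 CPM in 8 platelet-like, 18932 CPM in 12 cholangiocyte-like, 17879 CPM in 13 conventional dendritic 2-like, 12997 CPM in 2 stellate-like and 5026 CPM in 2 erythroid-like cells. Hepatocyte-like cells had 2.82 nuclear UMI per mt- UMI, against 0.165 to 0.503 in the compared classes, with 2.32% mt- UMI and a median depth of 1535 UMI. The part of the depth and of the limit on mt- UMI in this value was not tested.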

How the results depend on the processing

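Of the recomputed values of the main comparisons, 141 stayed within the counting interval, or within 1.5 times for counts, and 56 moved. Of the other recomputed values, which are class levels and ratios of named members to the next class, 108 stayed and 67 moved. A ratio of the highest to the lowest class cannot fall under 1, so no reversal could show in it. No paired analysis was possible because both samples share only replicate number 1, hold identical files and gave no test. The cause of a move was not tested, except that thinning and means over cells weight cells rather than UMI. In this part, the 3 ratios are the highest over the lowest class for nuclear genes (2.75), mt- genes (3.25) and nuclear per mt- UMI (3.05), and counts are members at least 1.5-fold higher in a class. Shares of all genes were not counted under the other settings, so these counts show a move and no excess of members.

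With at most 5% mt- UMI the ratios were 2.94, 2.71 and 2.18, with plasmacytoid dendritic-like cells highest for both genomes, and counts were 3 in T-like, 3 in B-like, 0 in NK-like, 0 in nonclassical monocyte-like, 8 in Kupffer-like, 19 in plasmacytoid dendritic-like and 2 in basophil-like cells. With no limit the mt- and nuclear per mt- ratios were 3.43 and 3.13, and with doublets kept the mt- ratio was 3.21. With mt-, ribosomal protein, haemoglobin and hepatocyte genes out of the total, the nuclear and mt- ratios were 3.35 and 4.38 and counts 2 in B-like, 9 in T-like, 9 in endothelial-like and 2 in basophil-like cells. As means over cells, the mt- and nuclear per mt- ratios were 3.02 and 2.97 and counts 2 in T-like, 22 in Kupffer-like, 28 in classical monocyte-like, 23 in plasmacytoid dendritic-like, 9 in ILC1-like and 25 in conventional dendritic 1-like cells.

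Thinned to 1000 UMI, the nuclear ratio was 2.81 (conventional dendritic 1-like cells highest), the mt- ratio 3.04, Cox6a2 759-fold, 5 members were 2-fold over the next class, and counts were 3 in B-like, 4 in T-like, 8 in NK-like, 20 in Kupffer-like, 30 in classical monocyte-like, 28 in plasmacytoid dendritic-like, 11 in ILC1-like, 32 in plasma-like and 36 in conventional dendritic 1-like cells. With 1 more marker required the mt- ratio was 3.33. In Leiden clusters the nuclear and mt- ratios were 2.68 (plasmacytoid dendritic-like cells highest) and 3.10, Cox6a2 402-fold, and counts 2 in T-like and 11 in classical monocyte-like cells; no cluster was named conventional dendritic 1.

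A pair of settings were added after seeing the data. Without genes above 1% of the UMI of a class in the total, the nuclear and mt- ratios were 3.06 (plasma-like cells highest) and 2.63, 9 members were 2-fold over the next class, Cox5a was 1.82-fold over it, and counts were 12 in endothelial-like and 53 in plasma-like cells. Without proliferating cells the nuclear per mt- ratio was 2.93 and counts 2 in B-like, 9 in Kupffer-like, 7 in ILC1-like and 11 in plasma-like cells. Depth limits basophil-like cells most, with 187741 UMI in all.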
